A study of Mus musculus with 6 samples.

Results

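The sarcomere and contractile protein genes described here are a list of 59 genes that encode the thick and thin filaments of striated muscle, the Z disc and M band that anchor them, titin and nebulin, and the factors that assemble or phosphorylate them. The list was drawn up by gene function, with earlier results of these data known. Of the 59 genes, 55 were among the 14548 genes in the expression files. *Acta1*, *Myl2*, *Tnni3* and *Mybpc3* were not analysed here.

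The sarcomere is the contractile unit of striated muscle, in which myosin thick filaments pull on actin thin filaments. Calcium binding to troponin C moves troponin I, troponin T and tropomyosin on the actin filament and so exposes the sites to which myosin binds. Most of these proteins come from families of paralogs used in fast fibres, slow fibres, the heart or embryonic muscle, and dividing myoblasts switch these genes on when they leave the cell cycle, express myogenin and fuse into myotubes.

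RNA-seq was performed on C2C12 cells, a mouse line of myoblasts, with 3 wild-type (WT) libraries and 3 myostatin-knockout (MSTN-KO) libraries. Myostatin is a TGF-β family protein that restrains muscle growth. The knockout was made with CRISPR/Cas9 and a guide to *Mstn*, and all 3 MSTN-KO libraries came from the line C11, so loss of *Mstn* and other differences between C11 and WT cells cannot be told apart. The strain label reads C11 for the WT libraries as well, and the genotype label was used for grouping. Nothing states that the replicates were separate cultures, so p-values measure the spread between these libraries, which may be technical.

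Expression is given as FPKM, the fragments on a gene relative to gene length and to library total, a unit per length that allows levels of different genes to be set side by side. *Mstn* itself was at or near 0 in both groups, between 0 and 0.0399 FPKM in WT and between 0.0269 and 0.0586 FPKM in MSTN-KO, so its RNA did not check the labels. The myoblast markers *Myod1*, *Myf5*, *Des*, *Itga7* and *Pax7* were detected in every library, and their summed FPKM ran from 950.3 to 1356 in WT and from 596 to 737 in MSTN-KO. *Des* was the largest part of each sum. By the limma test described below, *Myod1*, *Des* and *Itga7* were lower in MSTN-KO, *Pax7* was higher and *Myf5* was not called. The 4 markers of differentiating muscle (*Myog*, *Mymk*, *Ckm* and *Cdkn1c*) were all lower in MSTN-KO by the same test, against 8.96% of all tested genes. Their summed FPKM was 64.7 to 249 in WT and 14.6 to 20.7 in MSTN-KO. WT replicate 3 stood apart from the other WT libraries in these muscle genes, and values without it are given beside the results. These were bulk cultures, so fewer differentiating cells and less sarcomere RNA per cell cannot be told apart.

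Sarcomere genes of the thick and thin filaments, the Z disc, the M band, titin and the assembly factors were expressed at lower levels in MSTN-KO cells than in WT cells. Values were compared as log2(FPKM + 1) with limma over the 10837 genes that reached 1 FPKM in any library, which included 39 of the 55 members. A fold change on this scale understates the change of genes with low FPKM. At a Benjamini-Hochberg adjusted p under 0.05 with limma, 28 members were lower in MSTN-KO, against 8.96% of all tested genes. Only *Tpm2*, a tropomyosin gene, was higher among the 39, against 8.78% of all tested genes, and 10 members did not pass. The other 16 members lay below the filter. A member could pass the filter through WT alone, so these counts describe the list and carry no test of their own. With no filter, 30 of the 55 members were lower and 2 were higher, against 6.23% and 4.95% of all 14548 genes.

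By the study's own rule for differentially expressed genes (DEGs), a log2 fold change beyond 1 in either direction at an unadjusted p under 0.05, 23 members were downregulated, against 2.30% of all tested genes. No member was an upregulated DEG, against 1.21% of all tested genes. At an unadjusted limma p under 0.05 alone, 3 members were higher (*Tpm2*, *Capn3* and *Xirp2*), against 16.3% of all tested genes, and 32 were lower, against 16.2%. In 30 of the 39 members every WT library lay above every MSTN-KO library, which held for 18.1% of all tested genes. The opposite order held in 3 members and in 19.3% of all tested genes. The median log2 fold change of the 39 members was -1.31, and that of all tested genes was -8e-04.

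**Figure D1:**
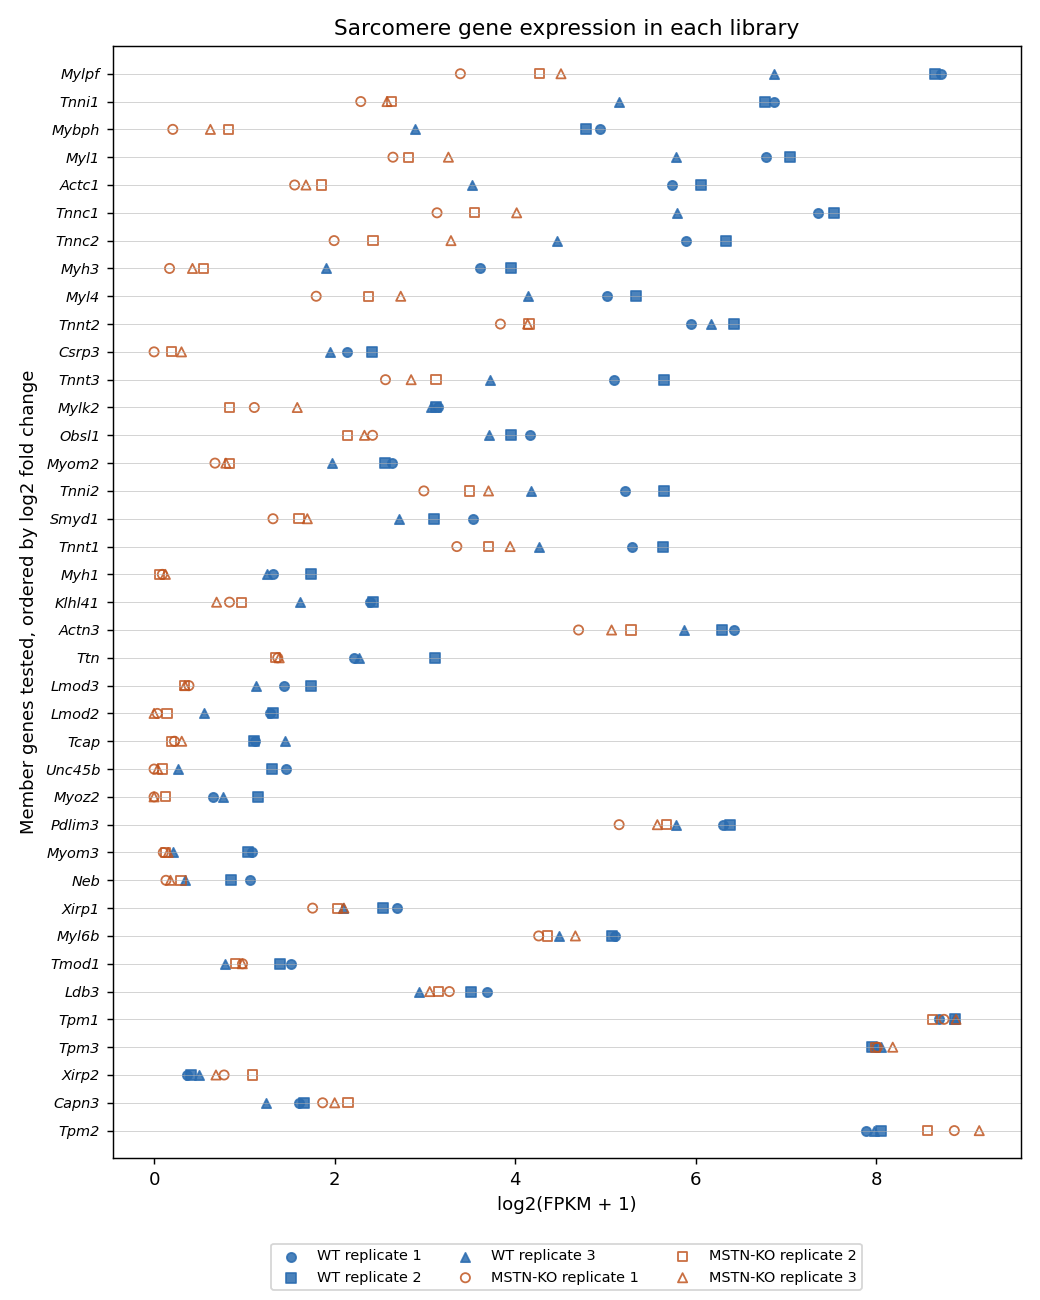
Expression of the 39 tested sarcomere genes in each library, on an axis of log2(FPKM + 1), ordered by log2 fold change. Filled blue symbols are WT and open orange symbols MSTN-KO, with the symbol shape marking the replicate. From *Mylpf* to *Neb* the blue symbols lie to the right of the orange ones, and WT replicate 3 (blue triangles) is usually the nearest of them to MSTN-KO. At the bottom, *Tpm2* shows the opposite order.

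The proximal promoters of the members are shown because muscle regulators bind there, the myogenic factors at E-boxes such as CAGCTG, the MEF2 factors at AT-rich sites, and serum response factor at CArG boxes. Sequences are the 150 bases before the transcription start in the RefSeq promoter table of GRCm38.p6, read 5′ to 3′ on the gene's strand. Capitals mark CAGCTG in *Mylpf* and *Mybph*, a CArG box in *Actc1*, and CAGCTG followed by a MEF2 site in *Klhl41*. The fast regulatory light chain gene *Mylpf* (chr7:127211458-127211607, plus strand) had the largest fall, *Mybph* (chr1:134193298-134193447, plus) and *Actc1* (chr2:114052876-114053025, minus) were among the 5 largest, and *Klhl41* (chr2:69669970-69670119, plus) was a lower member with both muscle motifs in this stretch. None of these motifs is in the 150 bases of *Myl1* (chr1:66945057-66945206, minus) and *Tnnc1* (chr14:31208162-31208311, plus), which also fell steeply, or of *Tpm2* (chr4:43523555-43523704, minus), the member that rose. *Myl1* and *Tpm2* each hold a CAGCTG farther upstream, within 250 bases of the start.
Mylpf: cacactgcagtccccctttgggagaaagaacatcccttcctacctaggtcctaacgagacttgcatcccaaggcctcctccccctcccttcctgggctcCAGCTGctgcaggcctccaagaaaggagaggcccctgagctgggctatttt
Mybph: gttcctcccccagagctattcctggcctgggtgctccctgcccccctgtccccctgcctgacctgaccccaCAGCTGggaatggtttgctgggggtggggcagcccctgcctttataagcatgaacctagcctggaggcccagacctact
Myl1: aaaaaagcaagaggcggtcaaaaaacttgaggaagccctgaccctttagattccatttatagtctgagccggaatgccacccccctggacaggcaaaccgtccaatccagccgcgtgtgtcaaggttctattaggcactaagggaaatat
Tnnc1: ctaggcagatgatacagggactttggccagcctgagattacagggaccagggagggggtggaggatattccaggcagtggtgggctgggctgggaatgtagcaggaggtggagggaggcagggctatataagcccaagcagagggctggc
Actc1: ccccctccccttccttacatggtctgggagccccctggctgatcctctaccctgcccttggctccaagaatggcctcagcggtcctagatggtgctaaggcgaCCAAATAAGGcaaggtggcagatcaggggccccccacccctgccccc
Klhl41: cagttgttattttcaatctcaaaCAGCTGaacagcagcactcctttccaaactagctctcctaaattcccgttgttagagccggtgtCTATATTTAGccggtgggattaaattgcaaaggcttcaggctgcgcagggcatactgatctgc
Tpm2: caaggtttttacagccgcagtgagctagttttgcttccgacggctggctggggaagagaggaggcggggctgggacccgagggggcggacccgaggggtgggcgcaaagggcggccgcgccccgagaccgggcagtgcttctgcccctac

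Over the 250 bases before each start, 43 of the 55 members had 53 promoter windows in the table, and 21 of the 28 lower members had 24. Windows of 1 gene can overlap, so that 1 site counts in 2 windows. This was so for CAGCTG in *Tnni1* and the CArG box in *Ldb3*. On either strand, CAGCTG was in 16 of these windows (30.2%), in 10 of the 24 windows of lower members (41.7%), in 12.0% of windows of all tested genes and in 13.0% of all 32841 windows. A MEF2 site was in 18.9% of the members' windows, 16.7% of those of lower members and 1.48% of those of tested genes. A CArG box was in 13.2% of the members' windows, 4.17% of those of lower members and 1.23% of those of tested genes. The looser E-box CANNTG, which contains CAGCTG, was in 81.1% of the members' windows and 56.2% of those of tested genes. The median GC content was 53.6% in the members' windows and 60.4% in those of tested genes. These matches are descriptions of letters in a window, and no binding was measured.

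Of the 16 thick filament genes on the list, 14 were in the files and 7 were tested. Of these, 6 were lower in MSTN-KO, against 8.96% of all tested genes. The largest fall of any member was that of *Mylpf*, the fast skeletal regulatory light chain that sits on the neck of the myosin head. Its level was 419, 399.9 and 115 FPKM in WT replicates 1, 2 and 3 and 9.50, 18.3 and 21.7 FPKM in MSTN-KO replicates 1, 2 and 3. The lowest WT library, replicate 3, was still 5.31-fold above the highest MSTN-KO library. The log2 fold change was -4.02 (SE 0.40, adjusted p = 2.15e-05), and it was -4.62 without WT replicate 3.

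*Myl1*, the fast essential light chain, had 109, 130.5 and 54.1 FPKM in WT and 5.26, 6.06 and 8.58 FPKM in MSTN-KO. The groups were far apart, and the log2 fold change was -3.63 (SE 0.26, adjusted p = 1.15e-06). *Myl4*, the essential light chain of embryonic muscle and the atria, had 31.4, 39.3 and 16.7 FPKM in WT and 2.47, 4.19 and 5.64 FPKM in MSTN-KO. Its log2 fold change was -2.53 (SE 0.28, adjusted p = 5.35e-05), with no overlap between the groups. *Myl6b*, an essential light chain of slow muscle and of nonmuscle cells, did not pass. Its values of 33.4, 32.5 and 21.3 FPKM in WT overlapped the 18.2, 19.5 and 24.4 FPKM in MSTN-KO, and its log2 fold change was -0.46 (SE 0.18, adjusted p = 0.0926). Without WT replicate 3 it was -0.66 with an adjusted p of 0.0159, and it also passed after scaling to a common sum and with the length and GC correction, with or without the block (adjusted p between 0.0148 and 0.0188).

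Among the sarcomeric myosin heavy chains, the motor proteins of the thick filament, the embryonic gene *Myh3* was the most highly expressed by the mean of each group. It had 11.2, 14.5 and 2.73 FPKM in WT and 0.126, 0.457 and 0.343 FPKM in MSTN-KO. WT replicate 3 was 5.97-fold above the highest MSTN-KO library, and the log2 fold change was -2.77 (SE 0.39, adjusted p = 3.78e-04). *Myh1*, the fast type 2X heavy chain, had 1.49, 2.33 and 1.37 FPKM in WT and 0.0660, 0.0412 and 0.0906 FPKM in MSTN-KO. Here WT replicate 3 was close to WT replicate 1, and the log2 fold change was -1.34 (SE 0.18, adjusted p = 3.06e-04). Both genes lie, with *Myh2*, *Myh4* and *Myh8*, in a cluster of closely related genes on chromosome 11 between 67078300 and 67308634 in GRCm38, and how the authors' counting divided shared fragments among them is not given in the sources used here.

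*Mybph*, a myosin-binding protein related to the C proteins that brace the thick filament, had 29.8, 26.6 and 6.44 FPKM in WT and 0.155, 0.773 and 0.541 FPKM in MSTN-KO. Every WT library lay above every MSTN-KO library, by 8.33-fold at the nearest. The log2 fold change was -3.66 (SE 0.40, adjusted p = 5.38e-05).

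Of the 17 thin filament genes, 15 were in the files and 14 were tested. Of these, 10 were lower and 1 was higher, against 8.96% and 8.78% of all tested genes. *Actc1*, the cardiac alpha-actin that is also made in embryonic skeletal muscle and new myotubes, had 52.4, 65.6 and 10.5 FPKM in WT and 1.94, 2.62 and 2.21 FPKM in MSTN-KO. WT replicate 3 was 5.61-fold below the mean of the other WT libraries and 4.02-fold above the highest MSTN-KO library. The log2 fold change was -3.41 (SE 0.46, adjusted p = 2.99e-04), and -4.20 without WT replicate 3. *Actc1* shares much of its sequence with the other actin genes, so its values are uncertain to that extent.

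All 7 troponin genes in the files were lower in MSTN-KO without overlap between the groups. Of all tested genes, 8.96% were called lower, and 18.1% had every WT library above every MSTN-KO library. The slow inhibitory subunit *Tnni1* had 115, 107 and 34.4 FPKM in WT and 3.89, 5.21 and 4.98 FPKM in MSTN-KO, which gave a log2 fold change of -3.76 (SE 0.34, adjusted p = 7.67e-06). The fast inhibitory subunit *Tnni2* had 36.0, 49.2 and 17.1 FPKM in WT and 6.93, 10.3 and 12.0 FPKM in MSTN-KO, and its log2 fold change was -1.62 (SE 0.30, adjusted p = 2.7e-03). The slow gene thus had the larger fitted change of this pair, though the difference between their changes was not tested.

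Both calcium-binding subunits fell. *Tnnc1*, of slow and cardiac muscle, had 162, 185 and 54.4 FPKM in WT and 7.78, 10.7 and 15.2 FPKM in MSTN-KO, which gave a log2 fold change of -3.33 (SE 0.36, adjusted p = 4.1e-05). *Tnnc2*, of fast muscle, had 58.4, 79.8 and 21.1 FPKM in WT and 2.98, 4.37 and 8.77 FPKM in MSTN-KO, which gave a log2 fold change of -3.00 (SE 0.40, adjusted p = 2.45e-04). In both genes WT replicate 3 was the lowest WT library and MSTN-KO replicate 3 the highest MSTN-KO library.

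The troponin T genes encode the subunit that ties troponin to tropomyosin. *Tnnt2*, the cardiac and embryonic form, had 60.6, 85.0 and 70.8 FPKM in WT and 13.3, 16.8 and 16.6 FPKM in MSTN-KO. WT replicate 3 lay between the other WT libraries in this gene, and the log2 fold change was -2.14 with all libraries (SE 0.15, adjusted p = 9.85e-07) and -2.14 without WT replicate 3. *Tnnt3*, the fast form, had 33.0, 49.2 and 12.2 FPKM in WT and 4.91, 7.72 and 6.20 FPKM in MSTN-KO, which gave a log2 fold change of -1.98 (SE 0.35, adjusted p = 2.32e-03). *Tnnt1*, the slow form, had 38.3, 48.6 and 18.1 FPKM in WT and 9.22, 12.0 and 14.4 FPKM in MSTN-KO, which gave a log2 fold change of -1.40 (SE 0.28, adjusted p = 4.31e-03). Troponin genes lie in pairs in the genome. *Tnni2* and *Tnnt3* are 54425 bases apart on chromosome 7 and *Tnni1* and *Tnnt2* 25364 bases apart on chromosome 1, and WT replicate 3 was low in *Tnni2*, *Tnnt3* and *Tnni1* but not in *Tnnt2*.

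The tropomyosins, coiled coils that lie along actin, did not follow the other thin filament genes. Each of these genes also makes nonmuscle isoforms from other exons, and values per gene do not separate the isoforms. *Tpm2* had 236, 263 and 249.8 FPKM in WT and 465, 379 and 563 FPKM in MSTN-KO. All 3 MSTN-KO libraries were above all WT libraries, and the log2 fold change was 0.89 (SE 0.15, adjusted p = 1.44e-03), the same without WT replicate 3. *Tpm1* had 413, 466 and 462 FPKM in WT and 429, 393 and 471 FPKM in MSTN-KO, and *Tpm3* had 255, 247 and 265 FPKM in WT and 257, 253 and 289 FPKM in MSTN-KO. Both overlapped, with log2 fold changes of -0.05 (SE 0.13, adjusted p = 0.794) and 0.06 (SE 0.12, adjusted p = 0.774). *Tpm1* was called lower after scaling to a common sum, at -0.34 with an adjusted p of 0.0213. The sign of *Tpm3* turned negative under quantile normalization and under scaling to the percentile 75 or to a common sum, while *Tpm2* was higher under each of these.

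The leiomodins and tropomodulins control the length of thin filaments at their pointed ends. *Lmod3* was lower, with 1.18 to 2.34 FPKM in WT and 0.266 to 0.307 FPKM in MSTN-KO and a log2 fold change of -1.08 (SE 0.19, adjusted p = 1.96e-03). *Lmod2*, the cardiac form, was also lower, with 0.470 to 1.49 FPKM in WT and 0 to 0.104 FPKM in MSTN-KO and a log2 fold change of -0.99 (SE 0.22, adjusted p = 7.26e-03). Without WT replicate 1 its adjusted p was 0.052. The capping protein gene *Tmod1* did not pass, and its values of 1.85, 1.63 and 0.721 FPKM in WT overlapped the 0.972, 0.866 and 0.968 FPKM in MSTN-KO (log2 fold change -0.28, adjusted p = 0.364).

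Titin is the giant spring that spans from Z disc to M band, and nebulin runs along the thin filament. *Ttn* was lower in MSTN-KO, with 3.63, 7.61 and 3.81 FPKM in WT and 1.58, 1.53 and 1.61 FPKM in MSTN-KO. WT replicate 2 was the high library here, WT replicates 1 and 3 were alike, and the log2 fold change was -1.16 (SE 0.22, adjusted p = 3.17e-03). *Neb* had 1.08, 0.806 and 0.272 FPKM in WT and 0.0955, 0.229 and 0.134 FPKM in MSTN-KO. Its groups did not overlap, but its log2 fold change of -0.55 did not pass (SE 0.20, adjusted p = 0.0811), whereas without WT replicate 3 it was -0.75 with an adjusted p of 0.0249.

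At the Z disc, where thin filaments of neighbouring sarcomeres are cross-linked, 8 of the 13 genes were tested. Of these, 5 were lower, against 8.96% of all tested genes. *Actn3*, the fast-fibre alpha-actinin that does the cross-linking, had 85.0, 77.5 and 57.6 FPKM in WT and 25.0, 37.9 and 32.5 FPKM in MSTN-KO. The groups did not overlap, and the log2 fold change was -1.18 (SE 0.17, adjusted p = 6.1e-04). *Csrp3*, a LIM protein of the Z disc prominent in slow fibres and heart, had 3.38, 4.34 and 2.87 FPKM in WT and 0, 0.145 and 0.234 FPKM in MSTN-KO. The lowest WT library was 12.3-fold above the highest MSTN-KO library, and the log2 fold change was -2.00 (SE 0.18, adjusted p = 7.84e-06). *Tcap*, which encodes telethonin, the cap that joins 2 titin ends, had 1.17, 1.16 and 1.73 FPKM in WT and 0.169, 0.145 and 0.237 FPKM in MSTN-KO, with WT replicate 3 the highest library.

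The groups did not overlap in *Tcap*, and its log2 fold change was -0.98 (SE 0.17, adjusted p = 2.21e-03). *Myoz2*, a calcineurin-binding Z-disc gene of slow fibres, had 0.571, 1.21 and 0.695 FPKM in WT and 0, 0.0929 and 0 FPKM in MSTN-KO, and its log2 fold change was -0.81 (SE 0.19, adjusted p = 0.0103). *Pdlim3*, an alpha-actinin-binding PDZ-LIM protein gene, had 78.0, 81.9 and 53.9 FPKM in WT and 34.5, 50.1 and 46.6 FPKM in MSTN-KO. The nearest libraries were only 1.08-fold apart, and the call at a log2 fold change of -0.69 (SE 0.18, adjusted p = 0.0185) was lost with WT replicate 1, WT replicate 2, MSTN-KO replicate 1 or MSTN-KO replicate 3 left out, with adjusted p between 0.0508 and 0.0833, and with no filter on low values (adjusted p = 0.0675).

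The other 3 tested Z-disc genes did not pass. *Ldb3*, another PDZ-LIM gene, had 11.9, 10.4 and 6.62 FPKM in WT and 8.65, 7.86 and 7.30 FPKM in MSTN-KO (log2 fold change -0.22, adjusted p = 0.439). *Xirp1*, an actin-binding Xin-repeat gene, had 5.46, 4.80 and 3.28 FPKM in WT and 2.38, 3.10 and 3.29 FPKM in MSTN-KO (log2 fold change -0.48, adjusted p = 0.0913). Both overlapped through WT replicate 3, and without it *Xirp1* passed with an adjusted p of 0.0359 and *Ldb3* had 0.0934. *Xirp1* also passed after scaling to a common sum and with the length and GC correction, with or without the block (adjusted p between 0.0251 and 0.0395). The related gene *Xirp2* lay in the opposite order, at 0.289, 0.330 and 0.411 FPKM in WT and 0.712, 1.13 and 0.608 FPKM in MSTN-KO. Its log2 fold change was 0.43 (SE 0.18, adjusted p = 0.116), and it passed with no filter, under quantile normalization and with a length and GC correction, with or without the replicate block, at adjusted p between 0.0111 and 0.0487.

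The M band links thick filaments at their centre. *Obsl1*, an obscurin-like linker, had 16.9, 14.5 and 12.0 FPKM in WT and 4.35, 3.43 and 4.03 FPKM in MSTN-KO, which gave a log2 fold change of -1.64 (SE 0.16, adjusted p = 1.6e-05). *Myom2*, the fast-fibre myomesin, had 5.23, 4.89 and 2.92 FPKM in WT and 0.596, 0.780 and 0.735 FPKM in MSTN-KO, which gave a log2 fold change of -1.62 (SE 0.19, adjusted p = 9.64e-05). Neither gene overlapped between groups. *Myom3*, a myomesin of slower fibres, had 1.12, 1.06 and 0.153 FPKM in WT and 0.0735, 0.0909 and 0.114 FPKM in MSTN-KO, so that WT replicate 3 sat beside the MSTN-KO libraries. Its log2 fold change was -0.65 (SE 0.23, adjusted p = 0.0685), and without WT replicate 3 it was -0.93 with an adjusted p of 6.68e-03. It also passed with the replicate block (0.0458) and with the length and GC correction (0.0415), and with both (0.0356).

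Of the genes whose products fold, modify or turn over the sarcomere, *Smyd1*, a methyltransferase that works with the myosin chaperones, had 10.6, 7.59 and 5.55 FPKM in WT and 1.49, 2.04 and 2.24 FPKM in MSTN-KO, which gave a log2 fold change of -1.58 (SE 0.20, adjusted p = 2.07e-04). *Klhl41*, a kelch protein that stabilises nebulin, had 4.24, 4.37 and 2.08 FPKM in WT and 0.784, 0.958 and 0.616 FPKM in MSTN-KO, which gave a log2 fold change of -1.31 (SE 0.22, adjusted p = 1.32e-03). Both were lower in every MSTN-KO library than in any WT library. *Unc45b*, the muscle myosin chaperone, had 1.75, 1.48 and 0.203 FPKM in WT and 0, 0.0669 and 0.0283 FPKM in MSTN-KO. Its log2 fold change was -0.97 (SE 0.27, adjusted p = 0.0242), and the call was lost without WT replicate 1, WT replicate 2 or MSTN-KO replicate 3, with adjusted p between 0.0851 and 0.127, and also with no filter (0.0699) and under quantile normalization (0.0734).

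*Capn3*, the muscle calpain, a protease held on titin, was the assembly gene that did not fall. It had 2.04, 2.16 and 1.35 FPKM in WT and 2.65, 3.43 and 3.00 FPKM in MSTN-KO, with every MSTN-KO library above every WT library. Its log2 fold change of 0.50 did not pass (SE 0.17, adjusted p = 0.0614), and it was 0.37 with an adjusted p of 0.206 without WT replicate 3. It passed as higher with no trend, under quantile normalization and with the length and GC correction, with or without the replicate block, at adjusted p between 0.0234 and 0.0455. The kinase *Mylk2*, which phosphorylates the regulatory light chain in skeletal muscle, had 7.84, 7.73 and 7.38 FPKM in WT and 1.16, 0.785 and 2.002 FPKM in MSTN-KO. The WT libraries were alike in this gene, and its log2 fold change was -1.94 (SE 0.19, adjusted p = 1.77e-05).

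**Figure D2:**
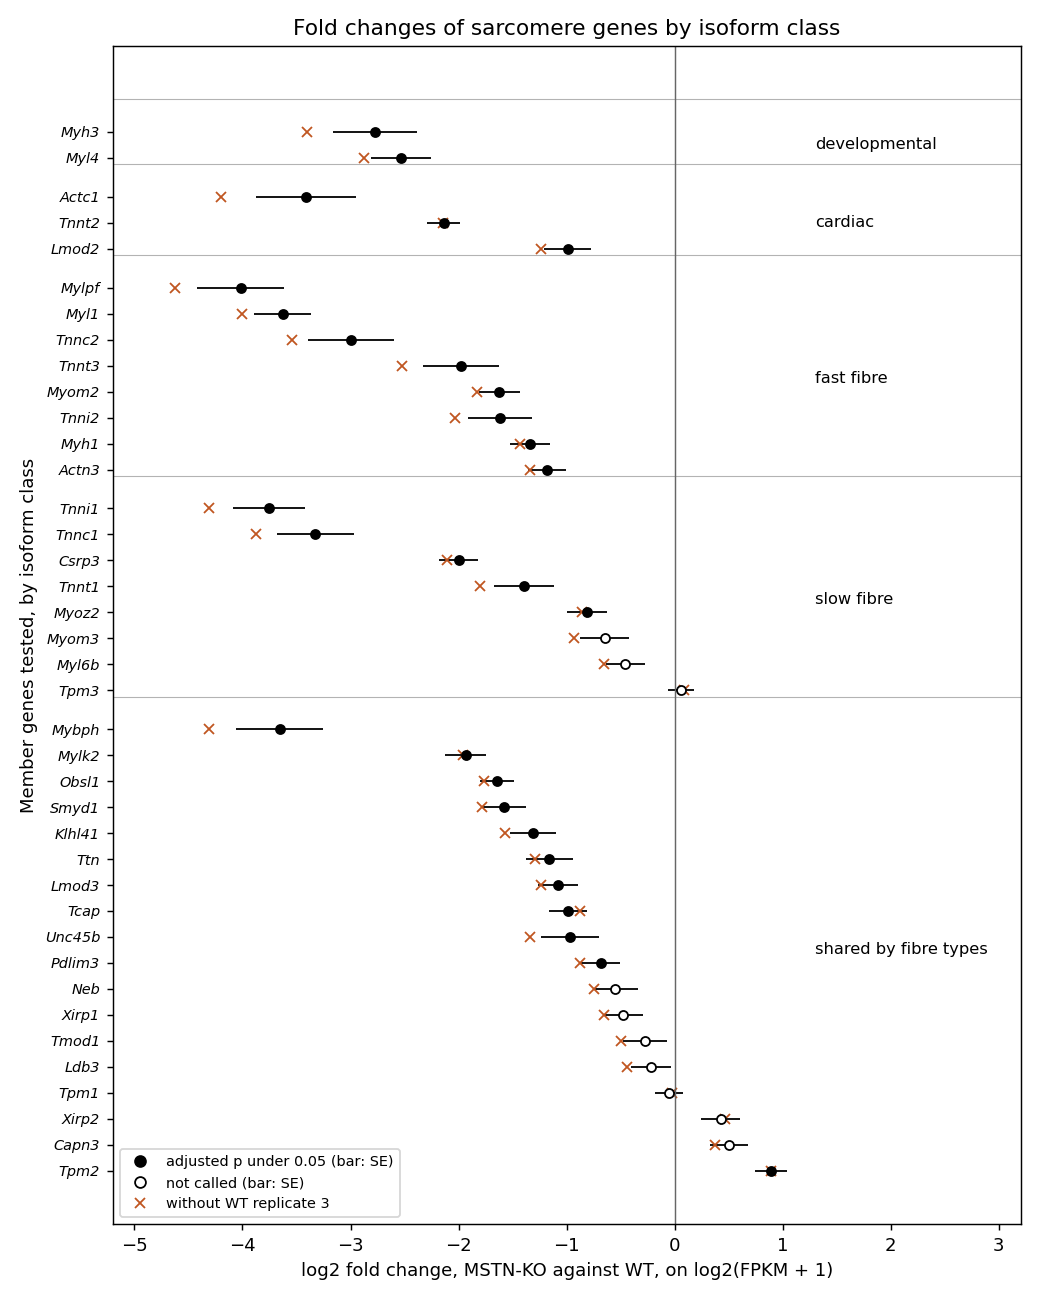
Log2 fold change of each tested sarcomere gene, MSTN-KO against WT on log2(FPKM + 1), grouped by the isoform class of the gene. Circles with bars are the fit and its SE over 3 libraries a group, filled at an adjusted p under 0.05, and crosses leave out WT replicate 3. The circles of the developmental, cardiac and fast classes are all filled and below 0, and the open circles fall in the slow and shared classes.

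The 16 members below 1 FPKM in every library were not tested. In 8 of them every WT library was above every MSTN-KO library, against 14.2% of all 3711 genes below the filter, namely *Actn2*, *Myh4*, *Myh7*, *Myh8*, *Mylk4*, *Myom1*, *Myoz1* and *Nebl*. The slow heavy chain *Myh7* had 0.669, 0.925 and 0.293 FPKM in WT and 0.00764, 0.0444 and 0.0343 FPKM in MSTN-KO. The alpha-actinin *Actn2* had 0.260, 0.423 and 0.224 FPKM in WT and was listed at 0 in all 3 MSTN-KO libraries. The perinatal heavy chain *Myh8* had 0.0615 to 0.0878 FPKM in WT and 0 to 0.0234 FPKM in MSTN-KO. The heavy chains *Myh2* and *Myh4* of mature fast fibres did not pass 0.0961 FPKM in any library, and the Z-disc gene *Myot* and the slow light chain gene *Myl3* were listed at 0 in all WT libraries. In the remaining members (*Mybpc1*, *Mybpc2*, *Myoz3*, *Mypn* and *Tmod4*) the groups overlapped.

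Grouped by where each paralog is mainly used, the genes were classed as 14 fast, 12 slow, 6 cardiac, 3 developmental and 24 shared. All 8 tested fast genes, all 3 tested cardiac genes and both tested developmental genes were lower, with median log2 fold changes of -1.80, -2.14 and -2.65. In the slow class 5 of 8 tested genes were lower, with a median of -1.10. The slow genes that did not pass were *Tpm3*, *Myl6b* and *Myom3*. *Tpm3* and *Myl6b* are also made in nonmuscle cells. Without WT replicate 3, *Myl6b* and *Myom3* passed as lower (limma adjusted p = 0.0159 and 6.68e-03), and *Tpm3* did not pass. In the shared class 10 of 18 were lower and 1 was higher, with a median of -0.83. The differences between classes were not tested. Of all tested genes, 8.96% were lower and 8.78% higher, and their median log2 fold change was -8e-04.

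Summed over its genes, the fast class had 748, 795 and 282 FPKM in WT and 55.7, 85.8 and 90.9 FPKM in MSTN-KO. The slow class without *Tpm3* had 355, 381 and 132 FPKM in WT and 39.1, 47.9 and 59.4 FPKM in MSTN-KO. In both, WT replicate 3 lay between the other WT libraries and the MSTN-KO libraries. The cardiac class had 115, 153 and 82.4 FPKM in WT and 15.4, 19.7 and 18.9 FPKM in MSTN-KO, and the developmental class 42.7, 53.9 and 19.5 FPKM in WT and 2.60, 4.67 and 5.99 FPKM in MSTN-KO. The shared class had 829, 907 and 820 FPKM in WT and 955, 850 and 1108 FPKM in MSTN-KO, where the groups overlapped and the MSTN-KO mean was higher. Without *Tpm1* and *Tpm2* it had 180, 178 and 108 FPKM in WT and 60.6, 77.4 and 73.9 FPKM in MSTN-KO. No class sum overlapped between the groups once the tropomyosins were set aside. Without tropomyosins the 52 members summed to 1441, 1559 and 625 FPKM in WT and 173, 236 and 249 FPKM in MSTN-KO, 5.51-fold lower by the group means. With the tropomyosins included, the 55 members summed to 2344, 2536 and 1602 FPKM in WT and 1324, 1260.3 and 1572 FPKM in MSTN-KO, 1.56-fold lower.

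**Figure D3:**
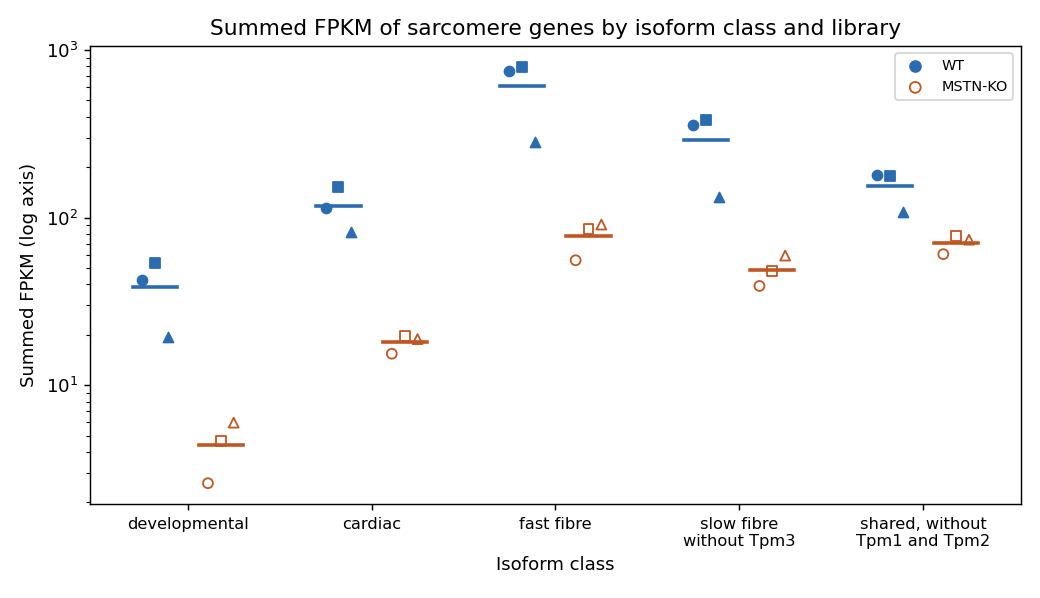
Summed FPKM of the sarcomere genes of each isoform class in each library, on a log axis, without the tropomyosins *Tpm1*, *Tpm2* and *Tpm3*. Filled blue symbols are WT and open orange symbols MSTN-KO, with circles, squares and triangles for replicates 1, 2 and 3 and a bar at each group's mean (n = 3). In every class the lowest WT point, replicate 3, is above the highest MSTN-KO point.

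The makeup of each paralog family is given as shares of its summed FPKM, with no test, and in some families these shares overlapped between the groups while in others they did not. Among the troponin I genes, *Tnni1* held 76.2, 68.6 and 66.8% in WT and 35.9, 33.7 and 29.3% in MSTN-KO, so that *Tnni2* was the larger in every MSTN-KO library. Among the striated-muscle essential light chains, *Myl1* held 62.7, 64.5 and 58.7% in WT and 20.3, 20.4 and 22.2% in MSTN-KO, while *Myl6b* held 16.1 to 23.2% in WT and 63.0 to 70.1% in MSTN-KO. WT replicate 3 was near the other WT libraries in both families, although its levels were lower. Among the troponin C genes, *Tnnc1* held 69.8 to 73.5% in WT and 63.4 to 72.3% in MSTN-KO, and the groups overlapped. In troponin T, WT replicate 3 was the library that stood apart, with 70.0% *Tnnt2* against 44.7 to 48.5% in the other 5 libraries.

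Other families held nonmuscle or smooth muscle paralogs as well. *Mylpf* was 22.6, 20.4 and 7.40% of the regulatory light chains in WT and 0.842, 1.67 and 1.63% in MSTN-KO, the rest being *Myl12b* and *Myl9* with traces of *Myl7* in WT. *Actn3* was 18.1 to 24.7% of the alpha-actinins in WT and 8.67 to 12.2% in MSTN-KO. *Tpm2* was 17.3 to 19.2% of the tropomyosins in WT and 27.3 to 34.5% in MSTN-KO. *Actc1* was 0.126 to 0.817% of the 5 actins measured in WT and 0.0223 to 0.0317% in MSTN-KO. *Myh3* was 59.2 to 82.6% of the sarcomeric heavy chains, a family with no nonmuscle paralog counted, in WT and 48.1 to 77.4% in MSTN-KO, where the groups overlapped.

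**Figure D4:**
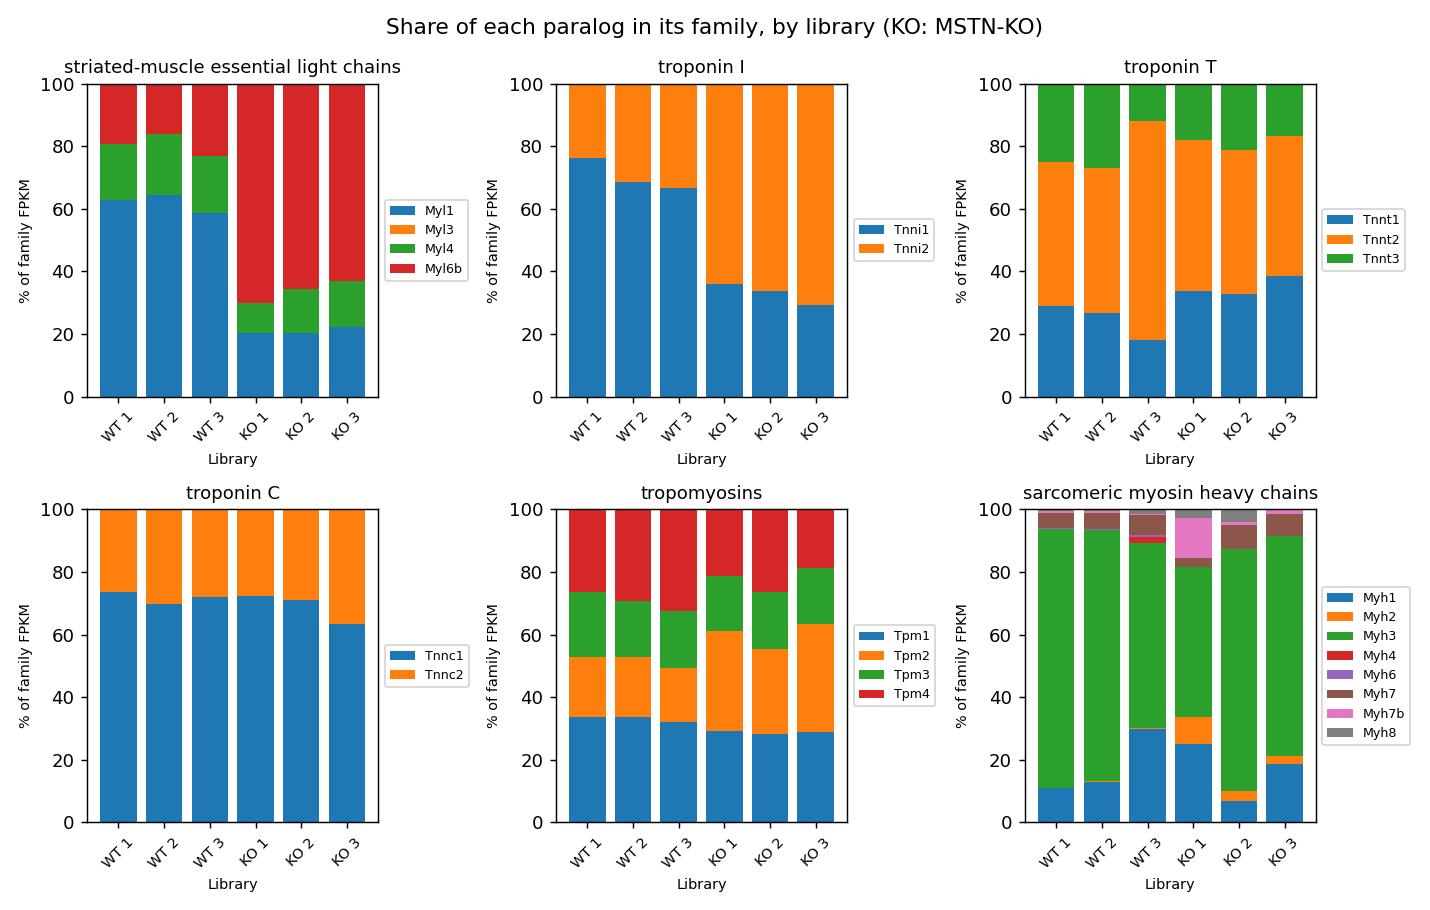
Share of each paralog in the summed FPKM of its family, in percent, with 1 stacked bar for each library (WT 1 to 3 and KO 1 to 3, KO standing for MSTN-KO) and 1 panel for each of 6 families. *Myl1* and *Tnni1* take a smaller share and *Tpm2* a larger share in all 3 MSTN-KO libraries, while the troponin C shares overlap.

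WT replicate 3 was the lowest WT library in 31 of the 39 tested members (79.5%), against 38.4% of all tested genes. It was under 0.5 of the mean of WT replicates 1 and 2 in 18 of the 39 (46.2%), against 179 of all tested genes (1.65%). The median difference of WT replicate 3 from that mean was -0.61 on the log2 scale over members and -0.02 over all tested genes. *Tnnt2*, *Mylk2* and *Tcap* were not low in this library. MSTN-KO replicate 1 was the lowest MSTN-KO library in 24 members (61.5%), against 25.9% of all tested genes. The median deviation of members from the WT mean was 0.23, 0.27 and -0.41 in the WT libraries and -1.34, -1.19 and -1.14 in the MSTN-KO libraries. Without WT replicate 3, 32 of the 39 members were lower in MSTN-KO, against 7.39% of all tested genes, among them *Myom3*, *Neb*, *Xirp1* and *Myl6b*. *Tpm2* was then the only higher member, against 5.59% of all tested genes.

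*Myog*, which encodes myogenin, the factor that starts terminal muscle differentiation, had 175, 148 and 47.3 FPKM in WT and 7.33, 10.2 and 11.6 FPKM in MSTN-KO. WT replicate 3 was again the lowest WT library and MSTN-KO replicate 1 the lowest of its group, and the log2 fold change was -3.36 (SE 0.36, adjusted p = 3.98e-05). Its part in the levels of the sarcomere genes was not tested. Of 12 myogenic factors, 10 were tested, 4 were lower, *Myog* and *Myod1* among them, and 2 were higher (*Mef2b* and *Pax7*). Of all tested genes, 8.96% were lower and 8.78% higher. *Myod1*, the factor that commits cells to muscle, had a log2 fold change of -0.58 (SE 0.13, adjusted p = 9.86e-03). *Mef2b* and *Pax7* had log2 fold changes of 0.66 and 0.64 (adjusted p = 7.21e-03 and 0.0415). Without WT replicate 3 the count of lower factors was 2 and that of higher ones 1, against 7.39% and 5.59% of all tested genes.

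A second list held 56 other genes of the sarcomere and its membranes, of which 52 were in the files and 36 were tested. Of these, 15 were lower in MSTN-KO and 5 were higher, against 8.96% and 8.78% of all tested genes. The median log2 fold change was -0.38. *Synpo2l*, a Z-disc actin-bundling gene, had 31.7, 25.9 and 18.5 FPKM in WT and 3.60, 8.22 and 5.95 FPKM in MSTN-KO, which gave a log2 fold change of -1.95 (SE 0.24, adjusted p = 1.16e-04). *Casq2*, a calcium store protein of the sarcoplasmic reticulum, had 5.49, 8.32 and 2.09 FPKM in WT and 0.514, 0.420 and 0.575 FPKM in MSTN-KO, which gave a log2 fold change of -1.93 (SE 0.30, adjusted p = 9.23e-04). *Itgb1bp2*, the muscle chaperone melusin, and *Ankrd2*, a stretch-responsive ankyrin repeat gene, followed with -1.59 and -1.31 (adjusted p = 2.65e-03 and 1.55e-03). The 5 that were higher were *Lmod1*, *Mylk*, *Palld*, *Fhl2* and *Fhl3*. *Lmod1*, the smooth muscle leiomodin, had 0.364 to 0.403 FPKM in WT and 1.25 to 2.39 FPKM in MSTN-KO. The count of higher genes fell to 1 without WT replicate 3 or without MSTN-KO replicate 1. Of all tested genes, 603 of 10790 and 511 of 10800 were then higher.

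Another list held 22 genes, most of them nonmuscle and smooth muscle paralogs of the members. It also held *Capza1*, *Capza2*, *Capzb*, *Cfl1*, *Myof* and *Nexn*, which are not paralogs of members. Some paralogs, such as *Lmod1* and *Mylk*, were in the second list instead. Of the 22 genes, 20 were tested, 2 were lower, 2 were higher and 16 did not pass, with a median log2 fold change of -0.04. Of all tested genes, 8.96% were lower and 8.78% higher, which is near these shares. *Myl9*, the smooth muscle regulatory light chain, had 157, 153 and 167 FPKM in WT and 32.5, 30.4 and 40.4 FPKM in MSTN-KO. It fell by 2.19 on the log2 scale (SE 0.13, adjusted p = 2.45e-07), and WT replicate 3 was its highest library. *Myh10*, a nonmuscle myosin heavy chain, was lower with a log2 fold change of -0.73 (SE 0.16, adjusted p = 8e-03). *Acta2*, smooth muscle actin, had 1126, 1115 and 1137 FPKM in WT and 1537, 1353 and 1798 FPKM in MSTN-KO, and *Myl6*, the nonmuscle essential light chain, had 3341 to 4334 FPKM in WT and 4903 to 6158 FPKM in MSTN-KO. Their log2 fold changes were 0.46 and 0.53 (adjusted p = 0.0372 and 0.0364), and neither was called higher with no filter, under quantile normalization, after scaling to a common sum, or with any WT replicate, MSTN-KO replicate 1 or MSTN-KO replicate 3 left out.

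Sums over the markers of fibroblasts, macrophages and endothelial cells overlapped between the groups, and the part of other cell types in the results was not tested. The 4 fibroblast markers in the files summed to 182 to 251 FPKM in WT and 242 to 250.5 FPKM in MSTN-KO, with *Dcn* lower and *Col1a1* and *Col1a2* not called. The 3 macrophage markers summed to 7.17 to 9.28 FPKM in WT and 7.27 to 9.69 FPKM in MSTN-KO, and limma called none of the 2 tested, nor did either have an unadjusted p under 0.05 (0 of 2). The 3 adipocyte markers summed to 5.69 to 6.48 FPKM in WT and 6.74 to 9.94 FPKM in MSTN-KO, with *Fabp4* higher. The 3 endothelial markers summed to at most 0.112 FPKM in any library.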

How the data were processed

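RNA-seq libraries of C2C12 cells, 3 WT and 3 MSTN-KO, were grouped by the genotype label. The authors computed FPKM per gene and deposited these FPKM values, 1 file per library, with replicates not pooled. The submitters' processing notes list Bowtie 0.12.2 and mm8 without saying what each was used for, and the annotation is not given in the sources used here. FPKM depends on what the other genes of a library take up. The number of fragments is unknown: low values showed no stable steps of 1 fragment, and 14 values lay above 0 and under 1e-06, so no counting error can be given. FPKM summed to between 723705 and 764524 in WT and between 856314 and 999579 in MSTN-KO.

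The members and all gene lists, markers and rules were chosen with earlier results of these data known. Gene symbols, coordinates, lengths and GC were taken from GENCODE M21 (GRCm38), with 14454 of 14548 identifiers matched to a symbol, and promoters from the RefSeq table of GRCm38.p6. Genes that reached 1 FPKM in any library were compared with limma 3.58.1 (R 4.3.3) on log2(FPKM + 1), by eBayes and a trend, on group alone, two-sided, with Benjamini-Hochberg adjustment at 0.05. DEGs followed the cutoffs in the paper's methods, applied to the limma fit and not to iDEP. The fit was tested on simulated data. Sums, shares and motifs were computed in Python 3.11.15 with pandas 2.3.3.

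Values in every library are given for the 2 most highly expressed members of each isoform class, the largest falls and every rise, all tested members that did not pass, and the tested heavy chain and troponin genes. Further members were added after their values were seen. Of each other list, up to 4 genes with the largest change among those called were to be named, and others were named after their values were seen. The values of 1 gene of the other lists are not reported here. The settings varied were the pseudocount (0.1), the filter (none, or a mean of at least 1 FPKM), the trend (none) and the scaling (quantiles, the percentile 75 or a sum of 1000000). Libraries were also corrected for length and GC content with mgcv 1.9.3, blocked by replicate number, both together, or left out singly.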

Additional observations from a re-analysis of the deposited data

How the results depend on the processing

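Across the alternatives, 23 (filter on the mean) to 31 members (scaling to a sum of 1000000, or a length and GC correction) were lower in MSTN-KO. Of all tested genes, 881 of 10327, 2367 of 10837 and 1347 of 10784 were lower in these settings. When each library was left out in turn, 25 to 32 members were lower. Of all tested genes, from 606 of 10793 (without WT replicate 2) to 1251 of 10806 (without MSTN-KO replicate 2) were then lower. The count of higher members was 2 with no filter and with no trend, against 720 of 14548 and 836 of 10837 genes. It was 3 under quantile normalization, with the length and GC correction, and with the replicate block and that correction. Of all tested genes, 971 of 10837, 1215 of 10784 and 1166 of 10784 were higher in these settings. The median log2 fold change of members was -2.12 with a pseudocount of 0.1 and -0.69 with no filter, which let in 16 genes of low FPKM. Scaling to a sum of 1000000 shifted the median of all tested genes by -0.26 and gave 2367 lower and 350 higher genes in place of 971 and 952. *Tpm3* reversed to -0.12 under quantile normalization, -0.0239 under scaling to the percentile 75 and -0.23 under scaling to the sum, and ranged from -0.0045 to 0.0925 with a library left out. *Tpm1* ranged from -0.1195 to 0.0101 with a library left out, reversing without MSTN-KO replicate 2, and was -0.26 under quantile normalization, -0.13 under percentile 75 scaling and -0.34 after scaling to the sum, where it passed as lower (adjusted p = 0.0213). The cause was not tested.

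For comparison, counts of all 10837 tested genes are given first, lower and then higher. They were 941 and 971 under quantile normalization, 1192 and 757 under percentile 75 scaling, and 2367 and 350 after scaling to the sum. With no trend they were 979 and 836, and with the replicate block 1001 and 939. Of the other sarcomere-associated genes, 23 were lower after scaling to the sum. Those higher numbered 3 under quantile normalization, percentile 75 scaling and the replicate block, 2 after scaling to the sum, and 1 to 5 with a library left out. Lower genes in the list of mostly nonmuscle and smooth muscle paralogs numbered 7 of 20 under quantile normalization and 9 of 20 after scaling to the sum. They numbered 4 with the replicate block and length and GC correction, and 2 to 5 with a library left out. Those higher numbered 0 with no filter, under quantile normalization and after scaling to the sum, and 0 to 2 with a library left out. Myogenic factors that were lower numbered 2 with no trend and 2 to 5 with a library left out. Those higher numbered 1 with no filter, percentile 75 scaling and the length and GC correction, with or without the block, 0 after scaling to the sum, and 1 to 2 with a library left out. Of all 14548 genes, 906 were lower and 720 higher with no filter. With the length and GC correction 1347 and 1215 of 10784 genes were called, and with the block as well 1259 and 1166. With a library left out, 606 to 1251 of all tested genes were lower and 423 to 1184 higher.

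Of 613 further values of single members under an alternative, 575 kept their direction and side of the threshold, 11 fell short of it, 22 newly passed it and 5 reversed. Changing the filter or the trend, or adding the replicate block alone, leaves the fold changes as they were. Direction could therefore not change in those settings, only the side of the threshold. The replicate numbers come from the labels. Deviations of same-numbered libraries correlated across genes with r of -0.0153, -0.1278 and -0.1421, which showed no pairing by number. The deviations were taken from the mean of only 3 libraries a group, so they cannot tell whether same-numbered libraries were processed together. With the replicate block 29 members were lower and 1 was higher, against 1001 and 939 of all 10837 tested genes.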

Other observations

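*Nkx2-5*, a cardiac transcription factor gene used here as a marker of heart muscle cells, was higher in MSTN-KO. It had 0.847, 1.56 and 1.25 FPKM in WT and 19.4, 19.0 and 21.9 FPKM in MSTN-KO, with a log2 fold change of 3.26 (SE 0.16, limma adjusted p = 3.76e-08). The cardiomyocyte markers *Nppa* and *Myh6* were at or near 0, and the 3 markers in the files summed to 1.02 to 1.60 FPKM in WT and 19.0 to 21.9 FPKM in MSTN-KO. The groups did not overlap and WT replicate 3 lay within the range of the other WT libraries. The members classed as cardiac in the sarcomere list that were tested (*Actc1*, *Tnnt2* and *Lmod2*) were lower in the same libraries. *Actc1* and *Tnnt2* are also embryonic forms, and *Myl4*, of embryonic muscle and the atria, was classed as developmental.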
